A study of Mus musculus with 5 samples.

Results

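The places in the genome bound by the transcription factor IRF4 were compared between mouse B cells cultured for 48 h and for 72 h with lipopolysaccharide (LPS, a bacterial cell wall component that activates B cells through the receptor TLR4). The members are the peaks of the 2 deposited IRF4 lists, 1573 at 48 h and 898 at 72 h, which together are 2471 of the 5590 peaks in the series and come from 2 of its 5 samples. The measurement was chromatin immunoprecipitation followed by sequencing (ChIP-seq) with an antibody against IRF4, and a peak is a stretch of DNA where the recovered fragments, counted as tags, pile up. Both groups were naive splenic B cells of wild-type C57BL/6 mice kept with LPS at 10 µg/ml, and they differed in culture time alone, as far as the labels state. Whether the 2 cultures came from the same animals is not given in the sources used here. The other samples were IRF8 libraries from the same 2 culture times and from germinal centre B cells, and the IRF8 lists of the LPS cultures served below only to mark which IRF4 places overlap them.

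IRF4 is made in small amounts in resting B cells and rises after activation, and B cells without it do not become plasma cells. It binds DNA weakly alone and usually next to a partner. With the ETS factors PU.1 and Spi-B it binds the ETS-IRF composite element (EICE), with BATF and JUN proteins it binds AP-1-IRF composite elements (AICE), and at high concentration it also binds interferon-stimulated response elements (ISRE), which hold repeats of the IRF half-site. AP-1 is the family of FOS, JUN and BATF dimers, which bind their own short palindrome. In B cells IRF4 is known for acting on Prdm1, the gene of the plasma cell regulator Blimp-1, and on Pax5 and other genes of B cell identity.

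Each time point was 1 library, so no difference below has a replicate check. Intervals are exact 95% intervals that cover counting error alone, and a comparison is one of 2 libraries. The 48 h library held 3396941 tags, of which 0.82% lay in peaks, and the 72 h library held 3766015 tags, of which 0.45% lay in peaks. The caller's headers name this share the approximate efficiency of the immunoprecipitation. Fewer cells with a bound site, less binding per cell and a less efficient immunoprecipitation cannot be told apart with 1 bulk library per time. Values are normalised tags, which the authors set to a total of 10000000, so that 1 tag is worth 2.94 at 48 h and 2.66 at 72 h. The caller's threshold was 10 tags in both, which is 29.4 and 26.6 normalised tags. Some listed single-copy peaks hold less than that, down to 23.6 at 48 h and 18.6 at 72 h. Peaks on unplaced contigs, or in sequence found more than 1 time in the genome, were set aside, 79 at 48 h and 66 at 72 h, and the 1494 and 832 single-copy peaks that remained are described here. The purity of the cultures was not checked, because peak lists hold no expression of marker genes.

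The sequences below show what the peaks look like at the places the results turn on. They are copied from the mouse genome build mm9, 5′ to 3′ on the strand given, and the capitals mark matches to the AP-1 site, the EICE or the core of the ISRE. The first 3 lie in peaks found at both times, the next 4 in peaks of the 48 h list alone, and the last 3 in peaks of the 72 h list alone.
Grap, AP-1 twin site, chr11:61458190-61458259, plus strand: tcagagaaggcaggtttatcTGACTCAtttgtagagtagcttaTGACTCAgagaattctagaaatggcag
Enpp6, AP-1 site within an AICE, chr8:48026829-48026875, minus strand: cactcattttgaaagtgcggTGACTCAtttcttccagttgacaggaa
Pax5, EICE, chr4:44684053-44684102, plus strand: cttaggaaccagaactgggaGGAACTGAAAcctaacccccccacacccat
Rasal1, AP-1 site within an AICE, chr5:121122067-121122113, plus strand: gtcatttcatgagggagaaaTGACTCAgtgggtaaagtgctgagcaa
Braf, AP-1 sites on both strands, chr6:39664485-39664547, plus strand: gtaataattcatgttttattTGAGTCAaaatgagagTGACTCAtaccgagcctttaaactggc
A930002I21Rik, EICE, chr3:106887625-106887674, minus strand: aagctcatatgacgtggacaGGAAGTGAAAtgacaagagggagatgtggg
Irf4, ISRE, chr13:30824745-30824794, plus strand: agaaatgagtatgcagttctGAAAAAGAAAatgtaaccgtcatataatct
Tiparp, EICE and ISRE, chr3:65319845-65319957, minus strand: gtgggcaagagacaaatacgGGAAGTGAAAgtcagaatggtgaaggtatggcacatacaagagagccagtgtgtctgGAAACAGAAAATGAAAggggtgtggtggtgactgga
Ell2, AP-1 and EICE, chr13:75877530-75877665, minus strand: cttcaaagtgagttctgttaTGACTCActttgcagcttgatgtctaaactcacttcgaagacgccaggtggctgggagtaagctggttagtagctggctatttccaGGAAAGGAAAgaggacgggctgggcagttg
Lgmn, AP-1 and EICE, chr12:103691991-103692092, plus strand: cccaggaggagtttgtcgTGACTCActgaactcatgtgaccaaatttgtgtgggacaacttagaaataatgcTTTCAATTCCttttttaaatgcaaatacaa
In the Lgmn stretch the EICE stands on the other strand, and an octamer lies beyond it in lower case.

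A 48 h peak was called kept when a 72 h peak overlapped it by at least 1 bp, and lost when none did. A 72 h peak with no 48 h peak over it was called gained. Of the 1494 single-copy peaks at 48 h, 1003 were lost, a share of 67.1% (interval 64.7 to 69.5). Of the 832 at 72 h, 342 were gained, a share of 41.1% (37.7 to 44.5), and 490 were kept. The calls depended on height. Lost peaks had a median of 35.3 normalised tags and gained peaks of 26.6, while kept peaks had 47.1 at 48 h and 34.5 at 72 h. Of the lost peaks, 324 (32.3%) held no more tags than the caller's threshold at 48 h, and of the gained peaks 193 (56.4%) held no more than that at 72 h. For these, a peak that misses the other list can lie just under its threshold, and lost and gained say that no peak was called, not that no IRF4 was there.

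The share of 48 h peaks that were lost was smaller in each higher range of tags. Below 30 normalised tags 85.3% were lost, from 30 to 40 tags 76.4%, from 40 to 60 tags 54.8%, and from 60 to 100 tags 40.9%. Of the 34 single-copy peaks with 100 or more tags none was lost, which allows a share of up to 10.3%. Gained peaks followed the same order at 72 h, with 59.4% gained below 30 tags, 29.8% from 30 to 40, 8.41% from 40 to 60 and 2.94% from 60 to 100. The share lost was above the share gained in each range up to 100 tags. In all, 102 lost peaks (10.2%) held at least 2 times the 72 h threshold, whereas 1 gained peak (0.292%) held at least 2 times the 48 h threshold. The plot of normalised tags by class shows this.

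**Figure D1:**
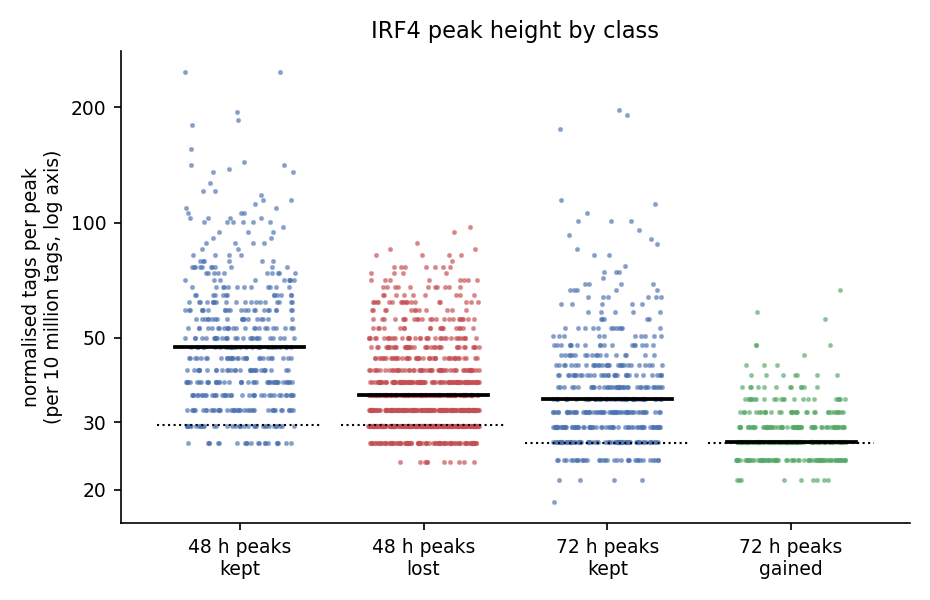
Normalised tags (log axis) of kept, lost and gained single-copy IRF4 peaks in the 48 h and the 72 h library, 1 point per peak, with the median in black and the caller's tag threshold dotted. Lost peaks reach 97.1 and gained peaks 66.4, while kept peaks reach 247.3 at 48 h and 196.5 at 72 h.

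At the 489 kept places where both peaks were single-copy, the 72 h value was lower than the 48 h value at 389 and higher at 100, with a median ratio of 0.752, a log2 ratio of -0.41, but scaling by the tags in peaks in place of all tags adds 0.87 and turns the median to 0.46. The sign of the median thus depends on the scaling, and places are described below relative to the median. Tags in peaks cover every called peak, 1573 at 48 h and 898 at 72 h. They include the peaks set aside, with 21.0% and 35.3% of such tags, so this second scaling also carries those differences. The quartiles of the log2 ratios were -0.78 and -0.08, and the extremes were -2.07 and 1.49. At the authors' scaling 67 places were at or past 2-fold lower at 72 h (13.7%) and 3 at or past 2-fold higher (0.613%). The interval of the ratio lay below 1 at 62 places (12.7%) and above 1 at 2 (0.409%). Relative to the median, 17 places were 2-fold or more lower (3.48%) and 16 were 2-fold or more higher (3.27%). The ratio went with height at 48 h. The median log2 ratio was -0.15 below 40 normalised tags and -0.51 from 40 to 60. It was -0.83 from 60 to 100 and -1.15 at 100 or more. Of the 176 places below 40 tags 0 were at or past 2-fold lower, and of the 34 at 100 or more 18 were (52.9%). A kept place needs a called peak at 72 h, so places low at 48 h had little room to fall. The 48 h value is also the divisor of the ratio, so counting error in it alone makes the ratio fall with height. By the mean of the 2 times instead, the median log2 ratio was -0.29 below 40 tags, -0.63 from 40 to 60 and -0.59 at 60 or more. The peak centres of a kept pair lay a median of 30 bp apart, and 69.1% within 50 bp.

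**Figure D2:**
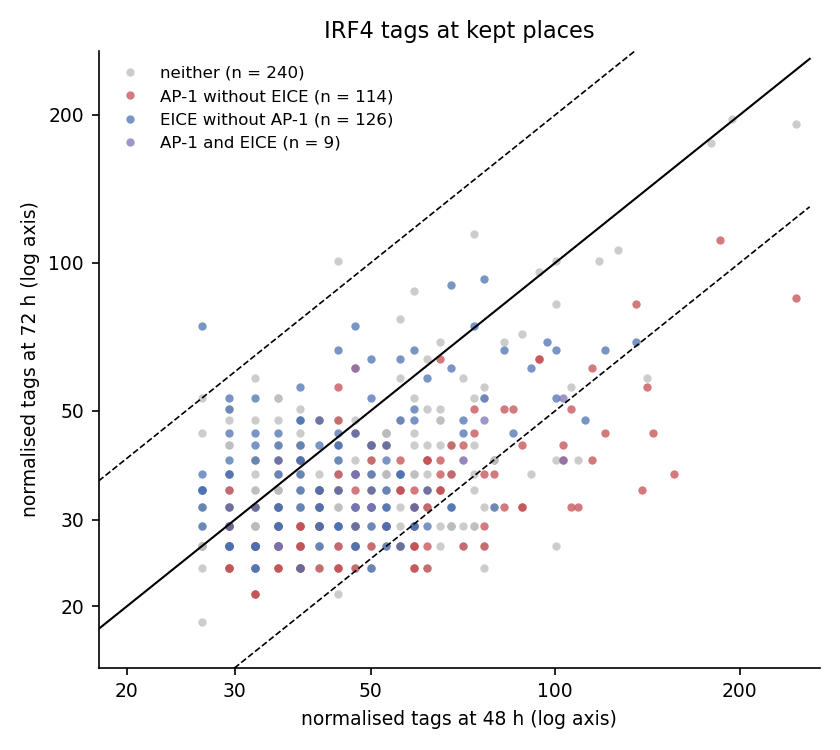
Normalised tags at 72 h against 48 h (both log axes) at the 489 kept single-copy places, 1 point per place, with the line of equal values solid and 2-fold lines dashed. Most points lie under the line of equal values, 67 at or past 2-fold lower and 3 at or past 2-fold higher.

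Single peaks are named below where a protein-coding start site lies within 50000 bp, so some high or far-moved places are not among them: the kept place nearest to Axin2, 88.7 kb away, had 194.3 and 196.5 tags, and that nearest to Arid1b, 227 kb away, 106 and 31.9. Both were picked out after their values were seen. Among the highest kept places that were named, Cdk8, the kinase of the Mediator complex, had an intronic peak at chr5:147072470-147072970 with 247.3 normalised tags at 48 h and 191.2 at 72 h, a ratio of 0.773 (interval 0.556 to 1.07). Its interval reaches 1, and the peak overlapped both IRF8 lists. A peak 35.5 kb from Pak3, a p21-activated kinase, had 179.6 and 175.3 tags, and one 26 kb from Ezh2, the histone H3 lysine 27 methyltransferase, had 100.1 and 100.9. The peaks near Cdk8, Pak3 and Ezh2 thus had ratios above the median by 0.04, 0.38 and 0.42 on the log2 scale. The interval of each holds the median ratio of 0.752, with 0.679 to 1.41 for Pak3 and 0.618 to 1.65 for Ezh2.

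Grap, a GRB2-like adaptor of antigen receptor signalling, stood apart from these. Its peak at chr11:61457977-61458477, 8.54 kb from the start site, had 247.3 tags at 48 h and 85.0 at 72 h, a ratio of 0.344 (0.221 to 0.522), which is 1.13 below the median on the log2 scale. It carries the twin AP-1 sites printed above. The Enpp6 peak, with an AP-1 site within an AICE, went from 185.5 to 111.5 tags. Malt1, the paracaspase that links the B cell receptor to NF-kappaB, had a peak 48.3 kb away that went from 141.3 to 55.8 tags and also holds an AP-1 site.

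Among kept places with a start site within 50000 bp and at least 20 tags in 1 library, counted before scaling, the 8 lowest ratios belonged to Ankrd55, Sik3, Stat5a, Gm10655, Hcls1, Grap, Ebf1 and Trhr2. Ankrd55 had the lowest, 156.0 tags at 48 h and 37.2 at 72 h, a ratio of 0.238 (0.122 to 0.436). Sik3, a salt-inducible kinase, went from 138.4 to 34.5, and Hcls1, an actin regulator phosphorylated after B cell receptor engagement, from 144.2 to 45.1. Ebf1, a factor that sets up the B lineage, had an intronic peak with 76.5 and 26.6 tags. The place assigned to Stat5a lies in an intron of Stat3 and went from 100.1 to 26.6. All 8 places had 76.5 or more normalised tags at 48 h, a range in which low ratios were more frequent, as given above. An AP-1 site was present in the peaks next to Ankrd55, Sik3, Gm10655, Hcls1, Grap and Trhr2, 6 of these 8. No EICE was in any of the 8. Of all kept peaks with 60 or more tags at 48 h, 36.6% held an AP-1 site and 19.8% an EICE. The 8 were chosen by ratio, so this is a description.

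At the other end, Stk24, an MST family kinase, had an intronic peak with an EICE that went from 26.5 to 74.3 tags, a ratio of 2.81 (1.29 to 6.76). The place next to 4930426L09Rik went from 44.2 to 100.9, a ratio of 2.29 (1.23 to 4.47). These are the 2 places whose interval lies above 1. Cltc, the clathrin heavy chain, had a promoter peak with 26.5 and 53.1 tags, and Nup160, a nuclear pore protein, a peak 27.1 kb away with 47.1 and 74.3. Aff3, an AF4 family elongation factor, had a promoter peak with 35.3 and 53.1. None of the other 6 peaks with the highest ratios under the same limits has an interval that leaves 1. All 8 of these peaks had between 26.5 and 73.6 tags at 48 h.

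The motifs around the peak centre differed between kept, lost and gained peaks. Motifs were searched on both strands in the 201 bp around each centre: AP-1 TGACTCA or its reverse complement, the EICE as GGAA and GAAA with 2 bases of any kind between them, the ISRE core as GAAA and GAAA spaced likewise, AICE1 and AICE2, the octamer ATGCAAAT, RUNX TGTGGTT, the E-box CAGGTG and an NF-kappaB site. Every AICE match contains an AP-1 match and is counted under both. An EICE was found in 27.5% of the kept peaks (at 48 h), 9.17% of the lost and 25.7% of the gained, against 2.34%, 2.50% and 1.46% of windows 2000 bp away and 2.15% of a regular grid over the genome. An AP-1 site was found in 25.3% of the kept, 31.8% of the lost and 11.7% of the gained peaks, against 3.67%, 4.24% and 4.39% of flanks and 3.21% of the grid. The ISRE core lay in 4.68% of kept, 4.59% of lost and 11.1% of gained peaks, against 3.97%, 3.39% and 1.90% of flanks and 3.44% of the grid, so in the kept and lost peaks it was near its flank level. Of the kept, lost and gained peaks, 46.4%, 57.4% and 57.9% held none of AP-1, EICE or ISRE. These patterns were known from earlier results of these data, and the motif matches are letters in a window, not sites shown to be bound.

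**Figure D3:**
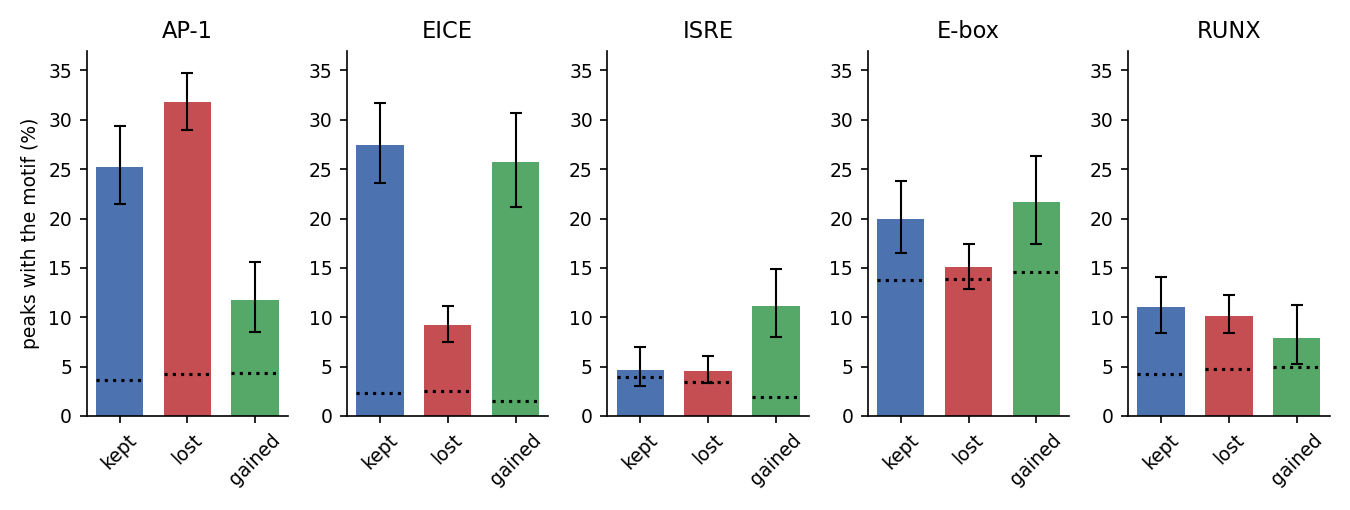
Percent of kept (48 h), lost and gained single-copy peaks with an AP-1, EICE, ISRE, E-box or RUNX match in the 201 bp window, with exact 95% intervals, and the share in flanking windows dotted. EICE is in 27.5% of kept and 9.17% of lost peaks, and AP-1 in 31.8% of lost and 11.7% of gained peaks.

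The other motifs were rarer or nearer to their flank level. AICE1 was in 3.26% of kept, 3.99% of lost and 0.292% of gained peaks, and AICE2 in 3.26%, 1.69% and 0.585%, with 0.0547% and 0.0430% of the grid. The octamer was in 2.85%, 5.28% and 4.68%, against 1.78% of the grid. The E-box was in 20.0%, 15.1% and 21.6%, against 13.7% in the flanks of kept peaks, and RUNX in 11.0%, 10.2% and 7.89%, with 12% and 4.77% of the grid. The 2 bases between the ETS and IRF parts of the EICE also varied: CT stood there in 51.9% of the kept EICE peaks (43.1 to 60.5), 40.2% of the lost (30.1 to 51.0) and 25% of the gained (16.4 to 35.4). GT stood there in 24.4%, 23.9% and 31.8%.

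Read from the motif, of the 443 peaks with an AP-1 site at 48 h, 319 were lost (72.0%), while of the 227 with an EICE, 92 were (40.5%), and of the 804 with neither motif nor ISRE, 576 were (71.6%). The AP-1 share was above the EICE share in each range of tags. Below 30 tags 92.8% of the peaks with AP-1 were lost and 62.7% of those with EICE, from 30 to 40 tags 84.9% and 53.0%, from 40 to 60 tags 62.9% and 25.3%, and at 60 or more 31.4% and 16.1%. Peaks with none of the 3 motifs were lost in 87.6%, 77.7%, 60.2% and 41.4% of cases in these ranges, so at 60 or more tags their share was above that of the AP-1 peaks. At 72 h, 40 of the 161 AP-1 peaks (24.8%), 88 of the 227 EICE peaks (38.8%) and 38 of the 62 ISRE peaks (61.3%) were gained. Of the 424 peaks with none of the 3 motifs 198 were gained (46.7%), and of all 832 peaks 41.1%. The EICE share was above neither of these. Below 30 tags 37.3% of the AP-1 peaks, 60.6% of the EICE peaks, 62.6% of those with none and 30 of 40 with ISRE were gained. From 30 to 40 tags the values in this order were 17.9%, 34.1%, 31.8% and 6 of 13. From 40 to 60 tags they were 5 of 26, 3 of 35, 3 of 45 and 2 of 8.

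The ratios of kept places also differed by motif. The 114 with an AP-1 site and no EICE had a median log2 ratio of -0.69, which is 0.28 below the median of all, and 79 of them (69.3%) lay below it. The 126 with an EICE and no AP-1 site had -0.27, which is 0.14 above it, and 49 (38.9%) lay below. Of the AP-1 places 29 (25.4%) were at or past 2-fold lower, of the EICE places 9 (7.14%) and of those with neither 28 (11.7%). The difference between AP-1 and EICE places was larger among higher places. Where the mean was 60 or more tags, the AP-1 places had a median of -1.31 (n = 24) and the EICE places -0.49 (n = 17). Below 40 tags they had -0.40 (n = 44) and -0.20 (n = 60). At the authors' scaling all 16 places with AICE1 and 12 of the 16 with AICE2 (75%) were lower at 72 h, beside 79.6% of all kept places, and 13 and 9 of them lay below the median of all. The plot of log2 ratio by motif shows these groups.

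**Figure D4:**
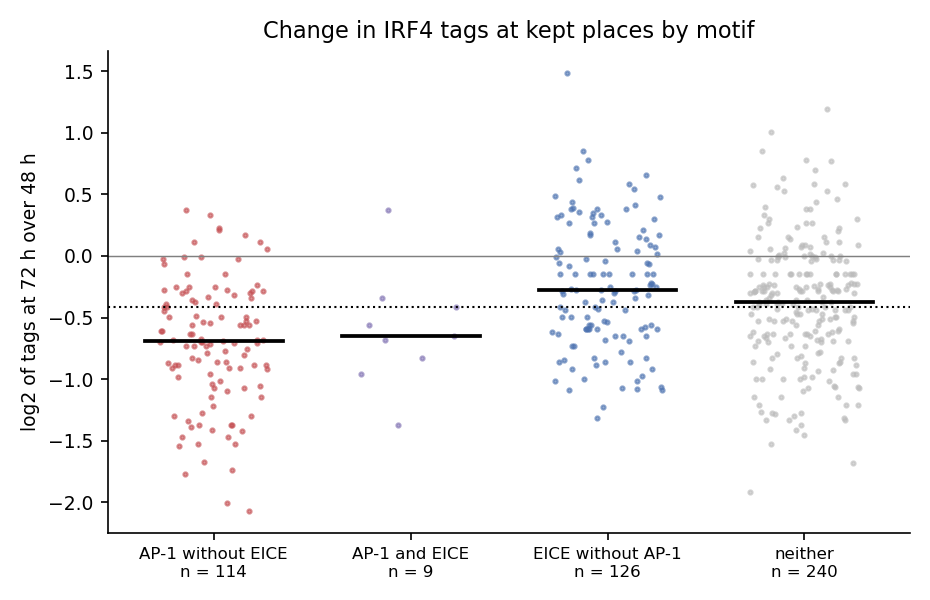
Log2 ratio of 72 h over 48 h normalised tags at kept single-copy places, by the motifs in the window, 1 point per place, with the median of all kept places dotted and 0 in grey. Places with AP-1 and no EICE have a median of -0.69, those with EICE and no AP-1 of -0.27 and those with neither of -0.37.

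IRF8 peaks of the LPS cultures overlapped kept places most. The IRF8 72 h list overlapped 32.4% of kept, 8.08% of lost and 15.8% of gained IRF4 peaks, and the IRF8 48 h list 12.8%, 2.59% and 2.34%. Kept peaks were also the higher ones, and the overlap was not compared within ranges of tags. The lengths of the 2 IRF8 lists are not given here, so their shares cannot be set against each other. The 51 kept places in both IRF8 lists had a median log2 ratio of -0.15, and the 319 in neither had -0.50. The header of the 72 h IRF8 list calls its tags replicate 2, and whether libraries were pooled for it is not given in the sources used here.

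Gained peaks lay at promoters more often. A centre within 1000 bp of a protein-coding start site was found for 6.52% of kept, 7.98% of lost and 22.8% of gained peaks (18.5 to 27.6; 78 of 342). Of the 72 h peaks at promoters 70.3% were gained, and of the others 36.6%. Of the 78 gained promoter peaks 62 lay below 30 tags, a range where 81.6% of promoter peaks and 54.7% of the others were gained. From 30 to 40 tags the shares were 57.7% and 26.6%. From 40 to 60 tags 0 of 8 and 9 of 99 were gained, and at 60 or more 1 of 1 and 0 of 42. Of the 48 h peaks at promoters 71.4% were lost, and of the others 66.8%. The gained promoter windows had a median GC content of 56.0% and a median of 11.5 CpG dinucleotides, while the kept promoter windows at 72 h had 47.8% and 4. The fragment length the caller estimated was 222 bp at 48 h and 190 bp at 72 h. Neither its part nor that of the lower share of tags in peaks at 72 h in these promoter peaks was tested.

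Of 22232 protein-coding genes, 366 had their start site nearest to a kept peak within 50000 bp (1.65%), 705 to a lost peak (3.17%) and 270 to a gained one (1.21%), and 1228 had any (5.52%). The nearest start site is a naming rule and not evidence that the gene is a target. Of the 14 gene lists, which hold 277 genes that were matched, 81 genes (29.2%) had a peak. The T cell and myeloid list had 0 of 20. The lists were drawn up with earlier results known, so their counts are descriptions.

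**Figure D5:**
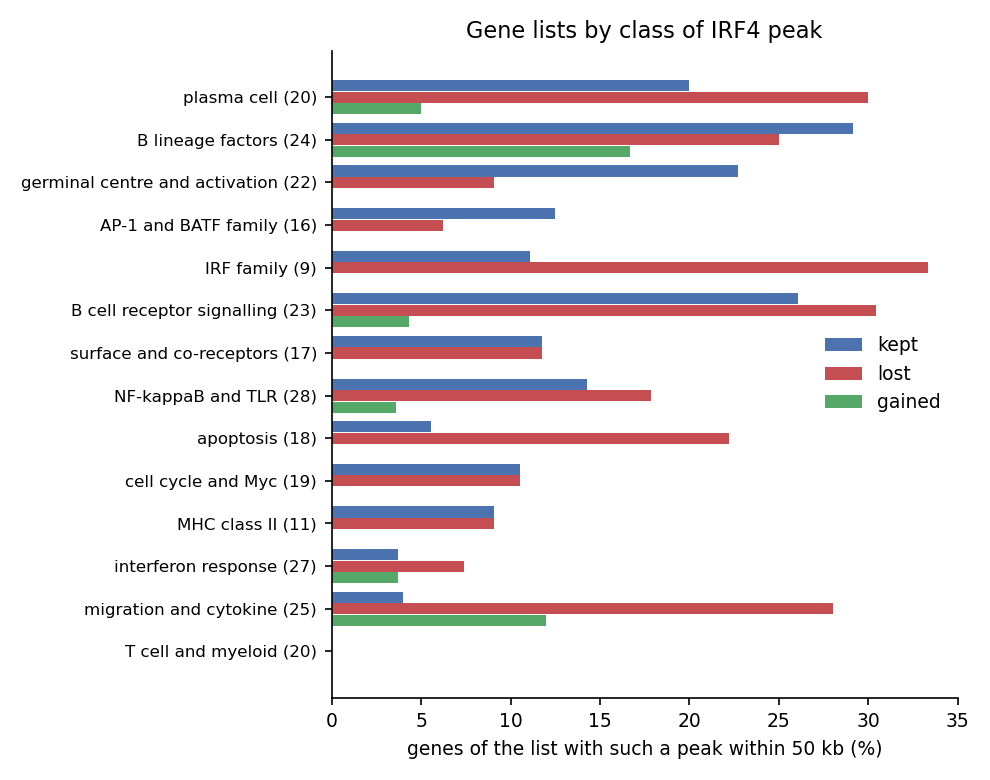
Percent of the matched genes of each of the 14 lists with a kept, a lost or a gained peak within 50000 bp of the start site, with the number matched. Over all classes, which no single bar shows, the B lineage and B cell receptor lists have 13 genes each with a peak, and the T cell and myeloid list has 0.

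In the plasma cell list 9 of 20 genes had a peak. Prdm1 had an intronic peak with an ISRE core at 48 h (44.2 tags, interval 24.7 to 72.8) that was lost. Slamf7, a surface receptor of plasma cells, had a lost intergenic peak with 44.2 tags and no motif match. Atf6, a sensor of unfolded protein in the endoplasmic reticulum, had a lost peak with 58.9. Ell2, an elongation factor that acts on immunoglobulin mRNA in plasma cells, had the one gained peak of the list, with 47.8 tags at 72 h (28.3 to 75.5), and the sequence printed above. Aff3 (named above), Il6st, the shared receptor chain of the IL-6 family, Tnfrsf13b, the receptor TACI, and Zbtb20, a zinc finger factor, had kept peaks, of which Tnfrsf13b and Zbtb20 had lost ones too.

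Among the IRF genes, Irf4 itself had 2 peaks at 48 h, 16.4 kb from the start site with 53.0 tags and 20.8 kb away with 29.4, and both were lost. The higher holds the ISRE core printed above, and the lower an EICE. Irf8 had a lost peak with 41.2 tags 10.8 kb away, and Irf5 a kept promoter peak with 38.3 and 26.6 tags and a lost one with 29.4.

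In the B lineage list 13 of 24 genes had a peak. Pax5, which holds B cell identity, kept its intronic EICE peak at chr4:44683770-44684270, with 76.5 tags at 48 h and 92.9 at 72 h, a ratio of 1.21 (0.71 to 2.10) that is above the median by 0.69 on the log2 scale. The interval of that ratio holds the median ratio of 0.752. Pou2f2, the gene of Oct-2, had a peak that went from 108.9 to 39.8, and Mef2c, a factor of B cell activation, had an intronic peak with 76.5 and 31.9. Bach2, a repressor of the plasma cell programme, had a kept peak with 58.9 and 26.6 tags and lost peaks with 44.2 and 41.2. Runx1 and Id2, a Runt factor and an inhibitor of E proteins, had lost peaks alone, with 44.2 tags for the higher Runx1 peak and 53.0 for Id2. Spib, Etv6 and Myb had gained peaks alone, with 31.9, 26.6 and 23.9 tags. Spib encodes Spi-B, one of the EICE partners, and its peak holds no EICE.

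In the B cell receptor list 13 of 23 genes had a peak. Kept ones lay near Blnk, Grap, Grb2, Inpp5d, Malt1 and Pik3ap1, and Blnk, the linker of the receptor, had 53.0 and 37.2 tags. The Pik3ap1 peak had 55.9 and 58.4. Peaks near Bank1, Cblb, Fyn, Prkcb and Ptpn6 were lost, all at or below 35.3 tags, and Plcg2, phospholipase C gamma, had a gained peak with 29.2. Siglecg, an inhibitory lectin of the receptor that belongs to the co-receptor list instead, had a kept EICE peak with 100.1 and 53.1 tags.

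In the NF-kappaB and TLR list 7 of 28 genes had a peak. Tlr9, the receptor of CpG DNA, had a promoter peak with an AP-1 site and an octamer that went from 58.9 to 23.9 tags, a ratio of 0.406 (0.163 to 0.933), and Nfkb1 had kept peaks with 61.8 and 50 tags at 48 h. Tlr4, the LPS receptor itself, kept a promoter peak with 41.2 and 26.6. Tnfaip3, the inhibitor A20, had a lost peak with 26.5. In the cell cycle list 4 of 19 genes had a peak: Myc had an EICE peak with 64.8 tags 12.3 kb away that overlapped both IRF8 lists and was lost, and Ccnd3, cyclin D3, a lost intronic peak with 67.7.

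In the apoptosis list 5 of 18 had a peak, among them Mcl1, Pmaip1 and Bbc3 with lost peaks, and Bbc3, the gene of PUMA, had the highest of the list, 53.0 tags at an AICE1. In the migration and cytokine list 9 of 25 had a peak, among them Ccr6, Il10, Il21r and Il6 with lost peaks. Ccr7, a receptor for lymph node homing, had a lost peak with 32.4 tags and 2 gained ones with 37.2 and 34.5, and S1pr1, the receptor for leaving the tissue, a lost AICE1 peak with 50 tags and a gained one with 26.6. Cxcr4 had a gained EICE peak with 26.6. In the interferon list 4 of 27 had a peak, Gbp3, a guanylate binding protein, with a gained promoter peak of 39.8 tags that holds AP-1, EICE, ISRE and NF-kappaB matches.

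In the germinal centre and activation list 6 of 22 had a peak, of which Icosl, the ligand of ICOS, had an EICE peak with 38.3 and 55.8 tags, and Cd83, an activation marker, a kept one with 50 and 34.5. In the AP-1 and BATF list 3 of 16 had a peak, Batf with 38.3 and 29.2 tags, Atf3 with 32.4 and 26.6, and Batf3 with a lost peak of 38.3. In the co-receptor list 4 of 17 and in the MHC class II list 2 of 11 had a peak, H2-DMb2 with 35.3 and 42.5 tags.

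Of the lost peaks with a start site within 50000 bp, the highest was next to Fut8, which adds core fucose to glycans, with 97.1 tags (66.9 to 136). Cyp11a1, the enzyme that starts steroid synthesis, and Klf13 had 85.4 each, and Rasal1, a Ras GTPase activator, had 82.4 at the AICE1 printed above. Braf and Ksr1, the kinase and its scaffold in the MAP kinase cascade, had 76.5 each. Peaks next to Ccl6, Qser1, AI848100, Phactr2, Rd3 and Tg made up the 12, with 76.5 to 82.4 tags. None of the 12 holds an EICE, and of all lost peaks with 60 or more tags 5 of 67 did (7.46%).

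The highest gained peak by the same rule lay at the promoter of Hjurp, the chaperone that places CENP-A at centromeres, with 66.4 tags (43.0 to 98.0). Tiparp, an ADP-ribosyltransferase, had 55.8, and Ell2, Lgmn (the protease legumain) and Sar1b, a GTPase of transport vesicles, had 47.8 each, Sar1b inside an intron of Sec24a. Derl3, a protein of endoplasmic reticulum degradation, had 42.5 in an exon annotated as UTR. Gm4968, Arid3b, Atp11b, Coil, Gbp3 and Iglc2 made up the 12, with 39.8 to 58.4 tags. The genes 1110003E01Rik, 5031414D18Rik, Asph, Foxp1, Gm4968 and Rbm47 had 4 or more places. Foxp1, a forkhead factor of B cells, kept 2 and lost 2, and its higher kept peak went from 103.0 to 42.5 tags. Rbm47, an RNA-binding protein, lost 4 and gained 1.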

How the data were processed

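The lists held IRF4 ChIP-seq peaks of 2 cultures, 1 library each, with no input named in their headers. Per the file headers, the authors called peaks with findPeaks of HOMER in its factor mode, taking 1 tag per position and peaks of 500 bp spaced 1000 bp or more. Their limits were 0.001 for the false discovery rate, 4 for the fold over 10000 bp around the peak and 1e-04 for the Poisson p-value. Reads were aligned to mm9 per the labels; Bowtie2 and BWA are both named in the submitters' processing notes, and which was used is not settled. The deposited signal is the normalised tag count per 10000000 tags. The deposited score, fold ratios over local and clonal background, p-value and focus fraction are the authors' caller's own values. Of these, the signal gave the results, and the fold over local served in 1 alternative; dividing the signal by the value of 1 tag gave whole tags (within 0.05) for 100% of peaks.

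Peaks were set aside when unplaced or when the median 24-base word within 100 bp of the centre was found more than once in the genome. Start sites came from GENCODE M1 on the same build. Intervals of shares are exact (Clopper-Pearson), and those of ratios exact binomial. Python 3.11.15, numpy 2.4.6, pandas 2.3.3, scipy 1.17.1, matplotlib 3.10.9, numba 0.67.0, pysam 0.24.0 and samtools 1.23.1 were used, and the counting was tested on simulated peaks. Named, among places with a protein-coding start site within 50000 bp, were the 10 kept places with the most tags, the 8 lowest and 8 highest ratios where 1 library held at least 20 tags, the 12 highest lost and gained peaks, genes of the 14 lists with a peak, by class, and genes with 4 or more places. The lists were plasma cell, B lineage, germinal centre and activation, AP-1 and BATF, IRF, B cell receptor, co-receptors and surface, NF-kappaB and TLR, apoptosis, cell cycle and Myc, MHC class II, interferon, migration and cytokine, and T cell and myeloid genes. Members and lists were chosen with earlier results of these data known. The germinal centre list of IRF8 was not used here, and some genes of the lists are not reported here by name.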

Additional observations from a re-analysis of the deposited data

Results flagged for a closer look

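Signal lay outside the single-copy peaks. The peaks set aside as multi-copy or unplaced held 21.0% of all tags in peaks at 48 h and 35.3% at 72 h, with a highest value of 4651.2 and 4684 normalised tags and a median of 50 and 47.8. At the 47 kept places that involve such a peak the median log2 ratio was -0.03, against -0.41 at the single-copy places. What moves the 2 apart was not tested.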

How the results depend on the processing

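With 1 library per time, leaving out a replicate was not possible. No paired analysis was possible because each group holds 1 library. Counting a place as shared within 100 bp of centres gave 70.9% lost and 47.8% gained. Lists cut to equal length by tags gave 54.8% for both, and with equal lengths the 2 shares come out near equal by construction. Peaks of 40 or more normalised tags, 605 at 48 h and 150 at 72 h, gave 47.9% lost and 6.67% gained. The median log2 ratio became 0 once divided by the median ratio and turned to 0.46 once scaled by tags in peaks. The share of kept places past 2-fold lower was 3.48% relative to the median, 0.613% scaled by tags in peaks and 38.2% at 1.5-fold, and the share past 2-fold higher was 3.27%, 14.3% and 3.27%.

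In kept, lost and gained peaks, windows of 50 bp gave AP-1 shares of 19.1%, 24% and 7.89%, EICE of 19.3%, 6.68% and 16.4%, and ISRE of 2.44% and 2.59% in kept and lost. The whole peak gave AP-1 30.3%, 39.5% and 16.7%, EICE 32.4% and 13.5% in kept and lost, and ISRE 10.4%, 10.8% and 15.5%. With 40 or more tags, AP-1 was 29.8% of kept and 50% of the 10 gained, and ISRE 20.0% of gained, so at that minimum the AP-1 share of gained peaks exceeds that of kept ones and its interval runs from 18.7% to 81.3%. A promoter of 2500 bp gave 14.7%, 13.0% and 28.4%, and 40 or more tags gave 4.48% of lost and 10.0% of gained. Within 10000 bp, 156, 335 and 141 genes had a kept, lost or gained peak, and with 40 or more tags 212 had a lost and 10 a gained one. The other 49 values for the main results moved by less than their intervals or, for counts, stayed within 1.5 times. Of the named places, 13 moved with the scaling by tags in peaks.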
